A study of Mus musculus with 9 samples.

Results

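Gene expression was compared between 3 libraries labelled Fosl2 KO and 3 control libraries, 6 of the 9 libraries of a mouse RNA-seq series. Levels are given as FPKM, the fragments of a gene per kilobase of its transcript, scaled to library depth. Of 23849 entries listed, 10340 reached a mean of 1 FPKM across all 9 libraries and entered the test. All libraries were made from naive CD4+ T cells sorted as CD4+CD62LhighCD44low, which were then activated through CD3 and CD28 by antibodies for 24 h. Control cells were wild type (wt), and the cells labelled KO were Fosl2fl/fl CD4-cre+, with Fosl2 alleles flanked by loxP sites and a Cre recombinase driven by Cd4 regulatory elements. The 3 libraries of the remaining genotype, Fosl2 Tg, entered only the estimate of the spread, and their levels are given beside a few results. The labels name no floxed control without Cre and no Cre control without floxed alleles, so an effect of Cre, of the floxed alleles or of strain cannot be told apart from an effect of the deletion. Whether replicate libraries stem from different animals is not labelled, and the p-values therefore reflect only how much these libraries vary, which may be technical.

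Fosl2, also called Fra-2, belongs to the AP-1 transcription factors, which bind DNA as dimers of a Fos protein with a Jun protein. In T cells AP-1 dimers act together with NFAT downstream of the T cell receptor and its co-stimulation. Fosl2 has been described as a brake on T helper 17 and regulatory T cell (Treg) gene programmes. Treg are the CD4+ T cells that suppress immune responses and depend on the transcription factor Foxp3, which the series title names.

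The control and labelled KO libraries were separated by genotype. Along the leading principal component (58.6% of the variance), the controls lay between -11 and -9.5 and the labelled KO libraries between 9.1 and 11.5. The next component (23%) spread the controls from -10.7 to 10.1, which is wider than the labelled KO libraries. Estimated depth was 44.9 to 50.4 M fragments in control, 31.6 to 56.7 M in the labelled KO group and 39.2 to 56.9 M in Fosl2 Tg. Of the genes of the sort, Cd4 stood at 184, 186 and 165 FPKM in control and 197, 187 and 197 in the labelled KO libraries. Cd44 was detected too after 24 h, at 18.4, 19.9 and 19.8 in control and 26.5, 32.6 and 30.1 in the labelled KO libraries. Cd8a did not exceed 0.462 in any library of both groups. The other CD8 chain gene, Cd8b1, was not as low, at 11.4, 12.4 and 11.6 in control and 5.91, 7.14 and 6.85 in the labelled KO libraries. The summed FPKM of 7 CD4 T cell markers was 1130 to 1150 in control and 1050 to 1070 in the labelled KO libraries.

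The targeted gene went against its label. Fosl2 (chromosome 5, 32136472 to 32157839, build mm10) stood at 7.77, 7.44 and 6.15 FPKM in control and at 19.2, 17.8 and 17.1 in the libraries labelled KO. Every labelled KO library was above every control library. The means were 7.12 ± 0.856 and 18 ± 1.09 (SD, n = 3 each), and the difference on the log2(FPKM + 1) scale was 1.23 ± 0.15 (SE), with a limma adjusted p = 0.00404. It ranged from 1.14 to 1.29 with any 1 of the 9 libraries left out, and a two-sided exact permutation test gave p = 0.1, the smallest that 3 against 3 libraries allow. The authors' deposited table lists 8.28 and 21.0 FPKM for the same groups, with a log2 fold change of 1.34. FPKM per gene sums all exons, so it cannot show whether a floxed part was missing from the transcripts. All directions given below are those of libraries in which total Fosl2 FPKM was raised.

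Fosl2 was the AP-1 gene that passed the test. Of the 17 tested members of the family, 1 rose and 0 fell, and the median log2 difference was -0.02, against -0.014 over all tested genes. Of the Jun genes, Junb and Jund were far more abundant than Fosl2, while Jun was less abundant. Junb stood at 112 ± 4.46 FPKM in control and 98.8 ± 0.916 in the labelled KO libraries (log2 -0.18 ± 0.05, limma adjusted p = 0.0811), and Jund at 123 ± 10.1 and 105 ± 1.85. Both had lower values in every labelled KO library than in any control, as did 19.0% of all tested genes, without passing the threshold. Fos was at 7.35 ± 0.347 and 7.04 ± 0.548, Jun at 4.10 ± 0.357 and 4.40 ± 0.474, and Batf, which dimerises with Jun proteins in T helper cells, at 27.2 ± 3.33 and 25.9 ± 1.12 FPKM. Fosl1 (1.73 and 1.39), Fosb (1.14 and 1.11) and Atf3 (1.24 and 1.23) were low in both groups. In the control cells Fosl2 was thus about as abundant per length as Fos, and in the labelled KO libraries it was above Fos in every library.

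**Figure D1:**
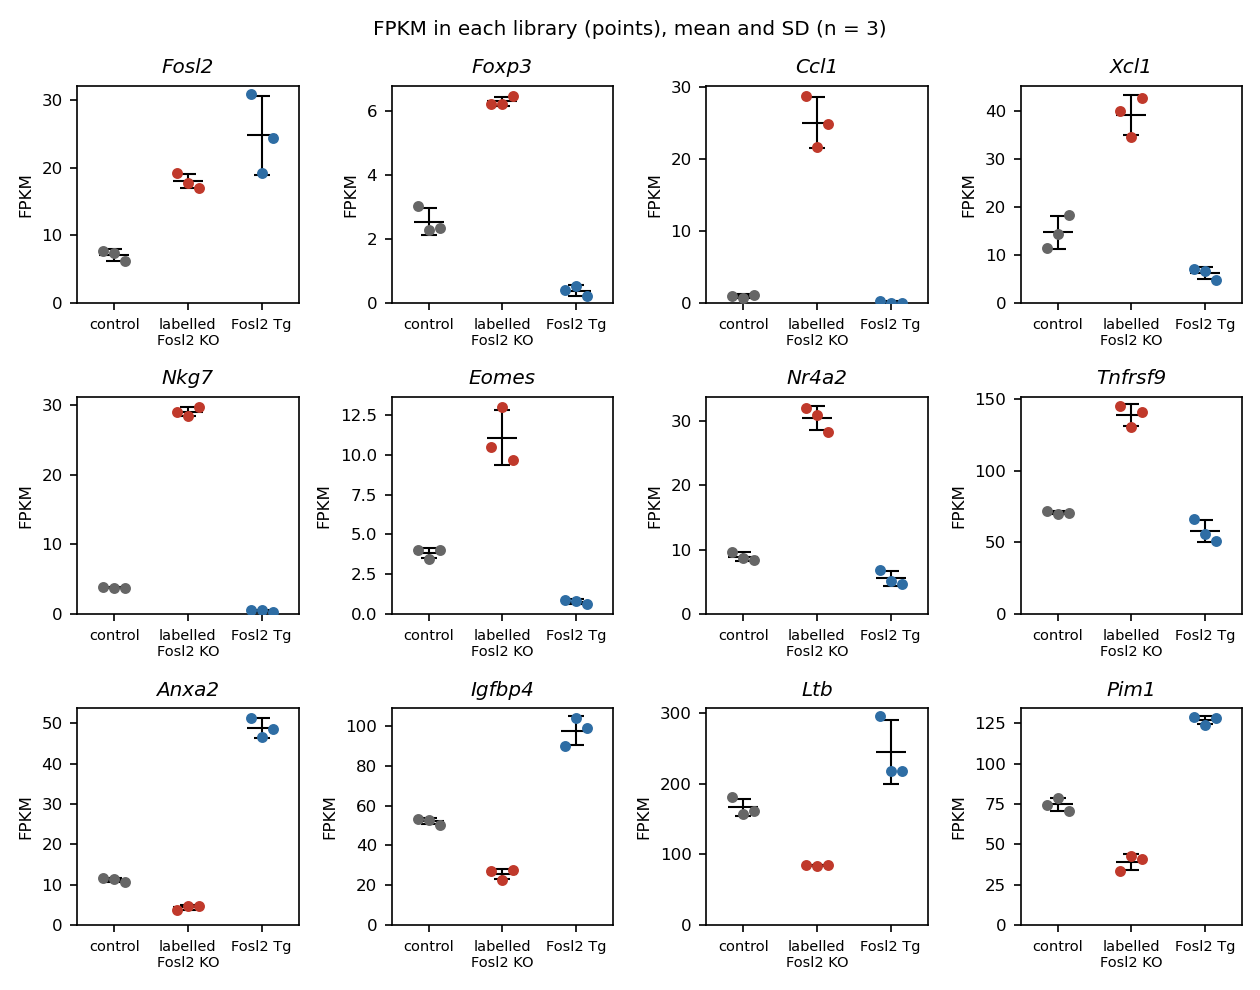
FPKM (y axis, linear, from 0) of 12 genes in each library (points) of control, the libraries labelled Fosl2 KO and Fosl2 Tg, with the mean and SD of 3 libraries as lines. In each panel the 3 labelled KO libraries lie apart from the 3 controls; Fosl2, Foxp3, Ccl1, Xcl1, Nkg7, Eomes, Nr4a2 and Tnfrsf9 are higher in them and Anxa2, Igfbp4, Ltb and Pim1 lower.

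In total 461 of 10340 tested genes (4.46%) passed a limma adjusted p of 0.05, 221 higher (2.14%) and 240 lower (2.32%) in the labelled KO libraries. Each count of gene list members given below is to be read beside these shares. The higher genes had larger changes and lower levels. Their median log2 difference was 0.51, and 62.4% of them had a mean under 10 FPKM over the 6 libraries. The lower genes had a median of -0.40, and 33.3% of them were under 10 FPKM, against 40.5% of all tested genes. More than 2-fold differences on the log2(FPKM + 1) scale were found for 27 higher and 8 lower genes. Leaving small RNA genes out and rescaling moved the split to 285 higher and 173 lower, so the balance of directions depends on the scaling. With no filter on low values, 592 of 17397 entries passed (3.4%), 353 higher (2.03%) and 239 lower (1.37%). Of the higher genes 14 had a control mean under 1 FPKM and of the lower genes 7 had a labelled KO mean under 1 FPKM; some of these reached the filter through the group in which they were high. The groups did not overlap for 3388 genes (32.8%), 1422 higher (13.8%) and 1966 lower (19.0%), which is far more than passed the test. Groups without overlap were thus common among genes that did not pass. With any 1 of the 9 libraries left out in turn, 149 of the calls held in every fit, 85 higher and 64 lower, and a call is described as kept where it is 1 of these. The number passing was 272 without control library 1, 176 without control library 2, 191, 178 and 210 without labelled KO library 1, 2 and 3, and 1233 without Fosl2 Tg library 1.

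**Figure D2:**
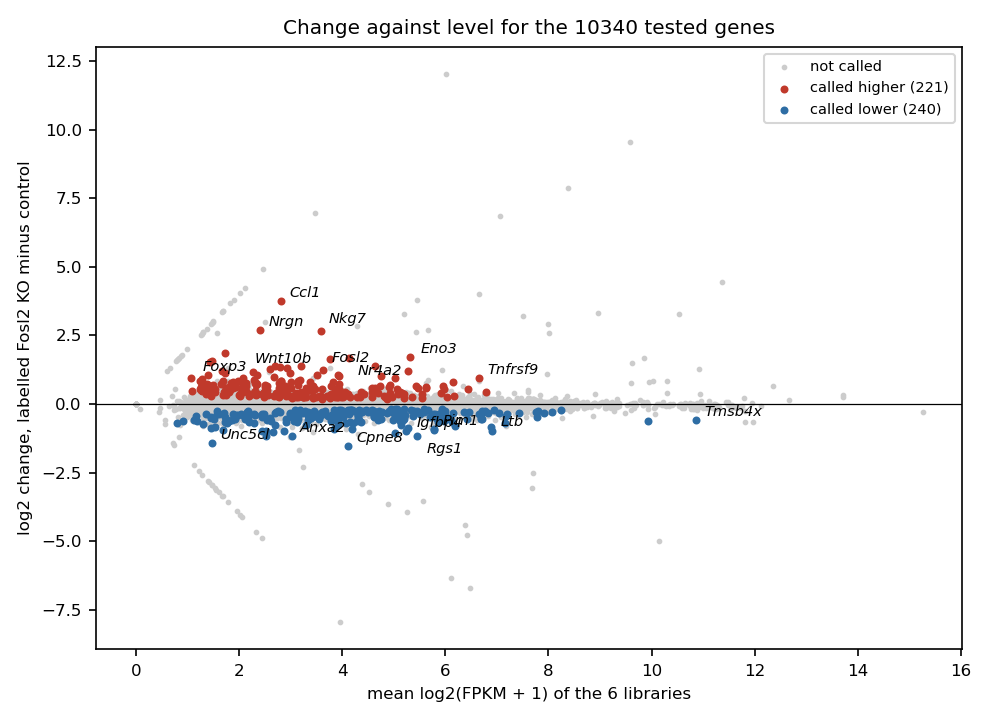
Log2 difference of the libraries labelled Fosl2 KO from control (y axis) against the mean log2(FPKM + 1) of the 6 libraries (x axis) for the 10340 tested genes, called genes in red (221 higher) and blue (240 lower). The named higher genes reach a log2 difference of 3.75 (Ccl1), while the lower genes lie closer to 0 and include the abundant Tmsb4x; the grey points far from 0 did not pass the test.

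The strongest changes were in a chemokine, a granule protein and a calmodulin-binding protein. Ccl1, the chemokine that binds the receptor Ccr8, stood at 0.991, 0.638 and 1.17 FPKM in control and at 28.7, 21.6 and 24.8 in the labelled KO libraries (log2 3.75 ± 0.15, limma adjusted p = 1.39e-05). Nkg7, a membrane protein of cytotoxic granules, stood at 3.87, 3.73 and 3.78 in control and at 29.0, 28.4 and 29.7 in the labelled KO libraries (2.65 ± 0.07, limma adjusted p = 1.19e-06). Ccl1 was thus near the filter in control, and its 26.9-fold rise by the ratio of means rests on that low level. Nkg7 rose 7.65-fold with almost no spread within a group. Nrgn, known as a calmodulin-binding protein of neurons, stood at 1.08, 0.931 and 1.32 in control and at 14.2, 12 and 11.4 in the labelled KO libraries (2.68 ± 0.11). All 3 calls were kept. In Fosl2 Tg the same genes had means of 0.114, 0.490 and 0.214 FPKM, set beside them without a test. Ccl1 and Nrgn, near 1 FPKM in control and below it in Fosl2 Tg, thus reached the filter through the labelled KO libraries.

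Among the lower genes the largest kept changes were in a membrane-binding and a death-domain protein. Anxa2, a calcium-dependent membrane-binding annexin, stood at 11.6, 11.4 and 10.6 FPKM in control and at 3.71, 4.72 and 4.83 in the labelled KO libraries (log2 -1.18 ± 0.08, limma adjusted p = 0.000279). Unc5cl, a death-domain adaptor, fell from 3.61, 3.65 and 3.44 to 0.421, 0.605 and 1.10 (-1.44 ± 0.15, limma adjusted p = 0.00194). Neither gene had overlapping groups, and both calls were kept. Cpne8, a copine, had the largest fall (-1.54 ± 0.32, limma adjusted p = 0.0333), but its values were scattered, at 35.0, 23 and 29.2 FPKM in control and 6.31, 7.87 and 15.3 in the labelled KO libraries. Its call was lost without any 1 control library, without labelled KO library 1 or 2 and without Fosl2 Tg library 3 (highest limma adjusted p = 0.131).

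The promoters of 5 called genes are shown because the labelled genotype concerns an AP-1 factor and AP-1 dimers bind the letters TGANTCA, where N is any base. The motif is its own reverse complement, so 1 search covers both strands. The sequences are the 250 bases before the RefSeq start (assembly GRCm38.p6, the build of mm10), with any match in capitals. In Anxa2 and S100a11, which fell, and in the second listed start of Tnfrsf9, which rose, matches were found. The promoters of Ccl1, which had the largest rise among the named genes, and of Nkg7 hold none in this window.
Anxa2, chr9:69453433-69453682, plus strand: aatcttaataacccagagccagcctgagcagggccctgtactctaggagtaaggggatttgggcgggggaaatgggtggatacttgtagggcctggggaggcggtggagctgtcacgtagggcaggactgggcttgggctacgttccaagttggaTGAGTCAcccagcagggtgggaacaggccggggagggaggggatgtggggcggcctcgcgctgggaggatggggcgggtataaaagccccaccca
S100a11, chr3:93520246-93520495, plus strand: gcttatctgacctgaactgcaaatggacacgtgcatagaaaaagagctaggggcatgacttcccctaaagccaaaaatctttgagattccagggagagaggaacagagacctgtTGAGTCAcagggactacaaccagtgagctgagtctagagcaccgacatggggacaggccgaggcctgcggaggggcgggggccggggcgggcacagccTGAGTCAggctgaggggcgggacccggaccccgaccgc
Tnfrsf9, chr4:150927749-150927998, plus strand: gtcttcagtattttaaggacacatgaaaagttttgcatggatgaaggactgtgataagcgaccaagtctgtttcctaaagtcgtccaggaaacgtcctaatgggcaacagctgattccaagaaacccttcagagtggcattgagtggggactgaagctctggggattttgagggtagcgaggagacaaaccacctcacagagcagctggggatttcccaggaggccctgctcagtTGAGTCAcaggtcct
Ccl1, chr11:82179813-82180062, minus strand: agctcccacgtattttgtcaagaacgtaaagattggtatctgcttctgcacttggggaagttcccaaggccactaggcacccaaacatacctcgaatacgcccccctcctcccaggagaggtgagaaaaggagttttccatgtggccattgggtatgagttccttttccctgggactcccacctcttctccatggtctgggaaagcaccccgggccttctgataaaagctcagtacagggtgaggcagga
Nkg7, chr7:43436888-43437137, plus strand: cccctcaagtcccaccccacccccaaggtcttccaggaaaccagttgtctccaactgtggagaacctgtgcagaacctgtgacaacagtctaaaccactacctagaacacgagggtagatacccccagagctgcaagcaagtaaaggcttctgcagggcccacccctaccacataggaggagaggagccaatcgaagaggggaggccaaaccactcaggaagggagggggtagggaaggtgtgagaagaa
The match of Anxa2 begins 95 bases before the start, those of S100a11 136 and 38 bases before it, and that of Tnfrsf9 15 bases before it. Of 27025 genes with a RefSeq promoter, 7.82% hold the letters in a window of the same length, as do 4.71% of the 7593 tested genes with a promoter at hand, out of 10243. Among the 15 higher genes with the largest change, 13 had a promoter at hand and 0 held the letters. Among the 15 lower ones, 11 had a promoter at hand and 1 held them. The promoters printed were chosen after the matches had been seen, so 3 of 5 is no frequency, and the call of S100a11 was not kept. Promoters were at hand for 161 of 220 higher and 175 of 238 lower genes with a single entry, under 80% of either group. The letters were held by 12 (7.45%) and 15 (8.57%) of these. Coverage was also incomplete for the tested genes, and no difference between the shares was tested.

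Chemokines are secreted proteins that guide the migration of leukocytes. Of 17 chemokine ligands listed, 4 were tested. Ccl1 and Xcl1 rose and 0 fell, against 2.14% higher and 2.32% lower of all tested genes. Ccl1 reached the filter through the labelled KO libraries, so its part in this count is not independent of the filter. Xcl1, which attracts Xcr1-bearing dendritic cells, stood at 11.4, 14.4 and 18.4 FPKM in control and at 40.2, 34.6 and 42.8 in the labelled KO libraries (log2 1.37 ± 0.18, limma adjusted p = 0.00483). The lowest labelled KO value was above the highest control value, and the call was kept. Ccl3 (8.08 ± 2.04 and 10.6 ± 1.51) and Ccl4 (51.6 ± 9.97 and 31.3 ± 7.19), which are secreted by activated T cells, did not pass the threshold, and their differences from control had opposite signs. With the replicate block or array weights, 1 ligand passed as lower.

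Of 8 tested chemokine receptors, 2 rose and 1 fell, against 2.14% higher and 2.32% lower of all tested genes. Below the filter, Cxcr5 was higher in the limma fit with no filter (means 0.811 and 1.68 FPKM, limma adjusted p = 0.00249). Ccr8, the receptor of Ccl1, stood at 6.92, 7.03 and 6.58 FPKM in control and at 15.1, 14.6 and 16.6 in the labelled KO libraries (log2 1.06 ± 0.11, limma adjusted p = 0.00132). Ligand and receptor were thus both higher in every labelled KO library. Cxcr6, a receptor of effector T cells, went from 2.12 ± 0.311 to 3.73 ± 0.146 (limma adjusted p = 0.0192). Ccr7, which guides T cells into lymph nodes, went from 323 ± 2.42 to 279 ± 9.18 (-0.21 ± 0.05, limma adjusted p = 0.0442). The call of Cxcr6 was lost without control library 1 or 2 or any 1 labelled KO library (highest limma adjusted p = 0.0845). That of Ccr7 was lost in every fit that left out 1 library, except the fit without Fosl2 Tg library 1 (highest 0.178). The receptors that fell numbered 4 without Fosl2 Tg library 1. Cxcr4 (3.27 and 2.55 FPKM) did not pass.

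The tested cytokine genes moved mainly downward, and those that fell belong to the tumour necrosis factor family or are Tgfb1. Of 35 cytokines listed, 16 were tested. Of these 1 rose and 5 fell, with a median log2 difference of -0.21, against 2.14% higher and 2.32% lower of all tested genes. Of the members below the filter, 2 low ones were higher in the limma fit with no filter. These were Csf1 (means 0.104 and 1.1 FPKM, limma adjusted p = 0.00168) and Ifng (0.173 and 0.49, limma adjusted p = 0.0274). Ltb, the membrane-bound lymphotoxin chain, stood at 181, 158 and 162 FPKM in control and at 85.0, 84.1 and 85.0 in the labelled KO libraries (-0.97 ± 0.12, limma adjusted p = 0.00355). Its neighbours on chromosome 17 fell too: Lta, the secreted lymphotoxin, from 72.6 ± 3.77 to 45.3 ± 0.159 (limma adjusted p = 0.012) and Tnf from 81.2 ± 6.43 to 56.3 ± 6.33 (0.0153). Fasl, the ligand of the death receptor Fas, fell from 9.34 ± 0.498 to 5.74 ± 0.479, and Tgfb1, an inhibitory cytokine that also induces Foxp3, from 78.8 ± 1.97 to 62.7 ± 2.12. The death receptor ligand Tnfsf10 rose from 1.37 ± 0.131 to 2.32 ± 0.0566. Il2, the T cell growth factor, had 138, 172 and 169 FPKM in control and 108, 113 and 117 in the labelled KO libraries, groups that did not overlap, with a limma adjusted p of 0.137. The calls of Ltb, Fasl, Tgfb1 and Tnfsf10 were kept. Lta lost its call without control library 2 or any 1 labelled KO library (highest limma adjusted p = 0.0634), and Tnf without control library 1 or 2 or labelled KO library 2 or 3 (highest 0.0744). The cytokines that fell numbered 8 without Fosl2 Tg library 1 and 3 without control library 2 or labelled KO library 2 or 3.

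Of 20 tested cytokine receptors, 1 rose and 0 fell. Il21r, the receptor chain of interleukin 21, rose from 48.3 ± 0.964 to 76.5 ± 4.14 FPKM (log2 0.65 ± 0.06, limma adjusted p = 0.00117, call kept). Il2ra, the high-affinity interleukin 2 receptor chain, stood at 102, 96.3 and 94.3 in control and at 124, 129 and 127 in the labelled KO libraries. These groups did not overlap, but the limma adjusted p was 0.123 with the spread of all 9 libraries and 0.00742 with the 6 libraries compared. Il7r was at 16.6, 10.5 and 7.59 in control and at 7.15, 7.12 and 6.65 in the labelled KO libraries, with a wide spread within the control group, and Il6ra was at 19.8 ± 2.69 and 15.9 ± 0.930. In the fit that omitted Fosl2 Tg library 1, 3 receptors rose and 3 fell.

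Foxp3 rose in the libraries labelled KO. Foxp3 (chromosome X, 7579676 to 7595243) stood at 3.03, 2.27 and 2.34 FPKM in control and at 6.22, 6.23 and 6.48 in the labelled KO libraries (log2 1.05 ± 0.11, limma adjusted p = 0.00155). The lowest labelled KO library had more than the highest control, the ratio of means was 2.48, and the difference ranged from 0.99 to 1.14 with any 1 library left out. The exact permutation test gave p = 0.1, the smallest possible. The listed entry overlaps those of Ccdc22 and 4930524L23Rik, so its FPKM may include their fragments. In bulk RNA a larger share of Foxp3-expressing cells and more Foxp3 RNA per cell cannot be told apart.

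Other Treg genes did not move together. Of 18 tested members of the Treg list, 3 rose and 2 fell, with a median log2 difference of 0.06. Tnfrsf9, the co-stimulatory receptor 4-1BB, rose from 72.1, 70.0 and 70.7 FPKM to 145, 130 and 141 (0.95 ± 0.09, limma adjusted p = 0.00111). Lrrc32, which anchors latent TGF-beta on the Treg surface, rose from 1.03 ± 0.244 to 2.33 ± 0.310. Nt5e, the ectoenzyme CD73, fell from 2.72 ± 0.468 to 1.03 ± 0.165 (-0.87 ± 0.11), and Capg, an actin-capping protein, from 86.2 ± 3.50 to 54.9 ± 1.80 (-0.64 ± 0.06). All 5 calls of the list, Foxp3 among them, were kept. Ctla4, an inhibitory receptor on which Treg depend, was at 56.9, 57.6 and 60.6 in control and at 43.8, 56.6 and 46.2 in the labelled KO libraries and did not pass, nor did Tnfrsf18 (144 ± 5.02 and 157 ± 2.64), Ikzf4 (3.46 and 3.90) and Gpr83 (10.2 and 8.20). Omitting Fosl2 Tg library 1 gave 5 members that rose.

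Genes of the cytotoxic programme were higher more often than lower. Of 22 members listed, 14 were tested. Of these 6 rose and 1 fell, against 2.14% higher and 2.32% lower of all tested genes. Their median log2 difference was 0.24, against -0.014 over all genes. Of the members below the filter, Tbx21 was higher in the limma fit with no filter (means 0.156 and 0.543 FPKM, limma adjusted p = 0.0113). Eomes, the T-box factor of cytotoxic and memory T cells, stood at 4.0, 3.48 and 4.04 FPKM in control and at 10.5, 13 and 9.67 in the labelled KO libraries (1.31 ± 0.11, limma adjusted p = 0.000589). Crtam, an adhesion receptor of cytotoxic CD4+ T cells, rose from 25, 24.3 and 23.7 to 60.2, 62.4 and 50.8 (1.21 ± 0.11). Prf1, the pore-forming protein perforin, rose from 0.618, 0.497 and 0.423 to 1.90, 1.95 and 1.93 (0.95 ± 0.12, limma adjusted p = 0.00406). Each labelled KO library was more than 2 times the highest control for these 3 genes. Ctsw, a protease of cytotoxic cells, rose from 4.37 ± 0.278 to 10.7 ± 1.64 (1.12 ± 0.13). The granzyme gene Gzmb was low and did not pass, at 1.02, 0.888 and 1.55 in control and 0.783, 1.07 and 0.835 in the labelled KO libraries. The calls of Nkg7, Eomes, Crtam, Prf1 and Ctsw were kept. The remaining called members were Slamf7, higher, which is named here after its value was seen, and Fasl, lower. Omitting Fosl2 Tg library 1 gave 7 members that rose and 3 that fell.

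The markers of CD8 T cells and of natural killer cells did not rise with this list. Cd8b1, which encodes the CD8 beta chain, stood at 11.4, 12.4 and 11.6 FPKM in control and at 5.91, 7.14 and 6.85 in the labelled KO libraries (log2 -0.75 ± 0.08, limma adjusted p = 0.00199), and Cd8a at 0.407 to 0.462 in control and 0.212 to 0.445 in the labelled KO libraries. The 6 natural killer and gamma delta T cell markers found summed to 0.0865 to 0.132 in control and to 0.0981 to 0.118 in the labelled KO libraries, and Ncr1, a defining receptor of natural killer cells, was listed at 0 in all 9. The 7 B cell markers found summed to 1.06 to 1.98 and 1.2 to 1.52, the 12 myeloid markers to 4.49 to 5.82 and 2.43 to 3.06, and 4 of the myeloid markers, Lyz2 and Cd14 among them, were at 0 in all 6 libraries. The 6 red blood cell entries summed to at most 0.0946, and the 8 stromal and epithelial markers to 15 to 21.8 and 13.1 to 13.6. The CD8, myeloid and stromal sums were thus lower in the labelled KO libraries, but each rested on few genes. The CD8 sum was mostly Cd8b1, and the myeloid sum mostly Ly6c2 (2.62 to 3.98 and 1.45 to 1.6) with Cd68. The stromal sum was mostly Pecam1 (12.8 to 18.7 and 10.5 to 11.1) with Epcam, while Col1a2, Col3a1, Krt8 and Cdh5 were at 0 in all 6 libraries. The part of these sums in the results was not tested.

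Transcription factors of T helper lineages changed in both directions. Of 22 tested members, 6 rose and 3 fell, with a median log2 difference of 0.08. Irf8, a factor of the interferon regulatory family, stood at 21.1, 24.5 and 22.2 FPKM in control and at 40.2, 46.2 and 46.9 in the labelled KO libraries (0.94 ± 0.11, limma adjusted p = 0.00365). Id3, an inhibitor of E proteins, fell from 145, 169 and 158 to 84.4, 89.6 and 87.7 (-0.84 ± 0.06, limma adjusted p = 0.000402). For Irf8, Id3 and Eomes the groups were far apart and the calls were kept. Id2, the relative of Id3, fell from 18.2 ± 1.73 to 12.8 ± 0.480, and Gata3, the factor of T helper 2 cells, rose from 4.81 ± 0.280 to 6.48 ± 0.354 (limma adjusted p = 0.0195). Neither call was kept. Id2 lost its call without control library 1 or 3 or any 1 labelled KO library (highest limma adjusted p = 0.111), and Gata3 without control library 2 or 3 or any 1 labelled KO library (0.0877). Members that rose numbered 3, 2 and 2 without control library 1, 2 and 3, 2 without any 1 labelled KO library, 4 without Fosl2 Tg library 3 and 8 without Fosl2 Tg library 1, where 6 fell. Stat3 and Stat5a, named here after their values were seen, rose as well. Bcl6 (4.41 and 5.11), Irf4 (166 and 124, limma adjusted p = 0.0868) and Ikzf3 (19.0 and 18.8) did not pass.

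Early genes of the T cell receptor response did not shift as a group. Of 30 tested members, 3 rose and 4 fell, with a median log2 difference of -0.04. Nr4a2, an orphan nuclear receptor induced by receptor signals, stood at 9.61, 8.77 and 8.33 FPKM in control and at 32.0, 30.9 and 28.3 in the labelled KO libraries (1.67 ± 0.11, limma adjusted p = 0.000229). Its relatives Nr4a1 (204 ± 12.7 and 254 ± 18.5) and Nr4a3 (53.4 ± 8.28 and 75.8 ± 3.54) were higher in every labelled KO library than in any control, as were 13.8% of all tested genes. Neither relative passed the threshold (limma adjusted p of 0.42 and 0.0828). Rcan1, an inhibitor of calcineurin, rose from 5.60, 6.19 and 6.05 to 10.8, 9.78 and 10.4 (0.70 ± 0.06, limma adjusted p = 0.000503), and Dusp5, a phosphatase of the kinase ERK, fell from 31.8 ± 3.15 to 21.2 ± 0.554. The calls of Nr4a2, Rcan1 and Dusp5 were kept. Ier3 rose from 1.12 ± 0.374 to 2.36 ± 0.195, Ier5 fell from 28.1 ± 0.366 to 19.9 ± 1.29, and Rgs1, a regulator of G protein signalling, fell from 64.9 ± 11.1 to 28.2 ± 4.59. Ier3 lost its call without control library 2 or any 1 labelled KO library (highest limma adjusted p = 0.108), Ier5 without any 1 control library or labelled KO library 1 or 2 (0.0729), and Rgs1 without control library 2 or 3 or labelled KO library 1 or 2 (0.0758). Egr1 (67.1 and 78.0), Egr2 (31.2 and 27.5), Egr3 (77.3 and 87.7) and Nfatc1 (55.1 and 52.9) did not pass. The remaining member that fell was Nfkbia, named here after its value was seen. These counts were 7 and 8 when Fosl2 Tg library 1 was omitted. Without control library 1, 2 fell, and without control library 2 or 3 or labelled KO library 1 or 2, 1 fell.

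Surface markers of activation and inhibitory receptors held a few higher genes. Of 20 activation markers tested, 4 rose and 1 fell, against 2.14% higher and 2.32% lower of all tested genes. Beside Crtam and Tnfrsf9, Cd44, the hyaluronan receptor that was low by the sort, stood at 18.4, 19.9 and 19.8 FPKM in control and at 26.5, 32.6 and 30.1 in the labelled KO libraries (log2 0.59 ± 0.09, limma adjusted p = 0.0087), and the tetraspanin Cd81 rose from 38.9 ± 1.33 to 59.6 ± 5.33. Both calls were kept. The tetraspanin Cd82 fell from 113 ± 3.33 to 94.5 ± 0.535 (limma adjusted p = 0.0316), a call that was lost without any 1 control or labelled KO library or Fosl2 Tg library 2 (highest 0.125). The early activation marker Cd69 (145 ± 3.69 and 156 ± 4.51), the transferrin receptor gene Tfrc (178 and 173), Cd27 (64.1 and 75.0) and Cd83 (7.08 and 9.88, limma adjusted p = 0.0645) did not pass. Of 11 tested genes of the inhibitory receptor list, which also holds ligands, 2 rose and 0 fell, to be set against the same shares. Both calls were kept. Cd160 rose from 4.24 ± 0.233 to 8.44 ± 0.846 and Pdcd1lg2, a ligand of PD-1, from 6.90 ± 0.274 to 12.7 ± 0.150. With Fosl2 Tg library 1 omitted, 6 activation markers rose and 3 fell, and 1 gene of the inhibitory receptor list fell. Pdcd1 (70.5 and 61.0), Lag3 (33.7 and 33.8) and Btla (112 and 105) did not pass.

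Of 28 tested naive and quiescence genes, 0 rose and 3 fell, and the median log2 difference was -0.22. A positive difference was found for 7 of them, and with array weights 3 passed as higher and 16 as lower. Igfbp4, an insulin-like growth factor binding protein of naive T cells, stood at 53.4, 52.8 and 50.4 FPKM in control and at 27.0, 22.7 and 27.4 in the labelled KO libraries (-1.0 ± 0.08, limma adjusted p = 0.000503, call kept). Dapl1 fell from 46.5 ± 10.8 to 21.8 ± 2.49, a call lost without control library 2 or 3 or any 1 labelled KO library (highest limma adjusted p = 0.0913). The other member that fell was Ccr7, described above. The transcription factor Klf2, which maintains quiescence, was at 39.4, 24.5 and 23 in control and at 14.1, 9.95 and 14.3 in the labelled KO libraries. These groups did not overlap, and Klf2 did not pass with the spread of all 9 libraries (limma adjusted p = 0.185). Tcf7 (222 ± 22.6 and 160 ± 1.13) and Lef1 (80.3 ± 4.17 and 60.9 ± 2.60), transcription factors of naive T cells, did not pass either, nor did Satb1 (34.7 and 29.5).

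The naive genes called depended on which libraries were in the fit. With the 6 libraries compared alone, where 888 genes passed (8.59%), 367 higher (3.55%) and 521 lower (5.04%), 9 naive genes fell and 0 rose. Klf2, Tcf7 and Lef1 then had limma adjusted p of 0.0401, 0.0201 and 0.011. Omitting Fosl2 Tg library 1 left 10 naive genes that fell, and without control library 2 or 3 or any 1 labelled KO library 1 did. Control library 1 had the highest value of Klf2, Tcf7, Lef1, Il7r and Satb1 among the controls. Of 30 genes of the receptor complex and its proximal signalling, 0 rose and 2 fell, and 9 had a positive difference. In each of these lists, 1 gene was higher and 10 were lower at an unadjusted limma p under 0.05. Cd2, an adhesion receptor, fell from 85.9, 81.6 and 84.6 to 56.8, 54.3 and 56.6 (-0.58 ± 0.06, limma adjusted p = 0.00132, call kept), and the kinase Lck from 267 ± 5.81 to 214 ± 3.30, a call lost without control library 2 or any 1 labelled KO library (highest limma adjusted p = 0.0716). Cd3e (159 and 158) and Dgka (134 and 109) did not pass. Omission of Fosl2 Tg library 1 raised the count of receptor complex genes that fell to 8.

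Of 20 tested genes of the interleukin 2 and STAT5 response, 1 rose and 3 fell. Pim1, a survival kinase induced by cytokines, stood at 74.5, 78.7 and 70.8 FPKM in control and at 33.7, 42.5 and 41.2 in the labelled KO libraries (log2 -0.92 ± 0.09, limma adjusted p = 0.00109, call kept). Cish, a feedback inhibitor of STAT5 signals, fell from 40.3 ± 1.5 to 28.3 ± 1.42 (limma adjusted p = 0.0369), a call lost without any 1 control or labelled KO library (highest 0.144). The other members called were Lta and, higher, Prf1. Bcl2 (13.8 ± 2.49 and 9.83 ± 0.172, limma adjusted p = 0.0599) and Socs2 (4.97 and 5.35) did not pass. Both counts were 4 when Fosl2 Tg library 1 was omitted, and without control library 2 or any 1 labelled KO library 1 fell.

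Calcium-binding S100 proteins, annexins and galectins were lower more often than higher. Of 17 tested members, 1 rose and 6 fell (median log2 difference -0.25), against 2.32% of all tested genes that fell. Beside Anxa2, S100a10, the S100 protein that forms a complex with annexin A2, stood at 179, 175 and 190 FPKM in control and at 109, 108 and 115 in the labelled KO libraries (-0.70 ± 0.07, limma adjusted p = 0.00117). Lgals1, a galectin with inhibitory effects on T cells, fell from 36.0, 37.6 and 39.8 to 25.9, 23.5 and 25.8 (-0.58 ± 0.06, limma adjusted p = 0.0013). No labelled KO library reached the lowest control for either gene. Anxa6 fell from 71.4 ± 2.63 to 52.7 ± 0.742, Lgals9 from 33.7 ± 0.192 to 27.7 ± 0.583, and S100a11, whose promoter is printed above, from 66.9 ± 1.2 to 52.5 ± 2.88 (limma adjusted p = 0.0301). Anxa4 rose from 1.76 ± 0.196 to 3.13 ± 0.194. S100a6 was below 0.5 FPKM in both groups and did not pass. Of these calls, that of S100a11 was lost without any 1 control or labelled KO library (highest limma adjusted p = 0.124), and the others were kept. In Fosl2 Tg, given without a test, Anxa2 had a mean of 48.8 FPKM, S100a10 of 352 and Lgals1 of 54.9, each above control.

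Integrin and adhesion genes gave 1 higher, Cd44, and 4 lower of 20 tested. The semaphorin Sema7a, a ligand of integrins, fell from 6.74 ± 0.592 to 2.89 ± 0.550 FPKM, the platelet and leukocyte kinase substrate Plek from 8.04 ± 0.0809 to 3.50 ± 0.800, Itgb7, the beta chain of gut-homing integrins, from 45.2 ± 7.17 to 25.8 ± 1.02, and Itga5 from 2.68 ± 0.261 to 1.93 ± 0.127. None of these 4 calls was kept. Each was lost without control library 1 or 2 and without labelled KO library 1 or 2 in turn, with a highest limma adjusted p of 0.131 for Sema7a, 0.0946 for Plek, 0.159 for Itgb7 and 0.127 for Itga5. Sema7a, Plek and Itgb7 also lost theirs without control library 3, Sema7a, Itgb7 and Itga5 without labelled KO library 3, Itgb7 and Itga5 without Fosl2 Tg library 3, and Itga5 without Fosl2 Tg library 2. The counts reached 8 lower without Fosl2 Tg library 1. Itga4 (11.8 and 13.6) and Itgb1 (37.1 and 36.2) did not pass.

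The 15 most abundant genes called were all lower in the labelled KO libraries. They include genes of the actin cytoskeleton. Tmsb4x, thymosin beta 4, which binds actin monomers, stood at 2160, 2120 and 2520 FPKM in control and at 1480, 1540 and 1520 in the labelled KO libraries (log2 -0.58 ± 0.08, limma adjusted p = 0.00815). Arpc1b, a subunit of the Arp2/3 complex, went from 242 ± 5.80 to 201 ± 1.07, and Rac2, a GTPase that steers actin in leukocytes, from 167 ± 3.56 to 129 ± 3.24 (-0.37 ± 0.05, limma adjusted p = 0.00365). The surface proteins Cd52 (1220 ± 104 to 782 ± 18.7), Cd53 (192 ± 4.53 to 153 ± 7.13) and Fxyd5 (256 ± 3.65 to 186 ± 10.2) fell as well, as did Sh3bgrl3 (297 to 242), the histone variant gene H3f3b (239 to 195), Anp32a (166 to 124) and the chloride channel protein gene Clic1 (147 to 116). Lck, Ccr7, S100a10, Ltb and Id3 complete these 15. Of the 15, Rac2, S100a10, Ltb and Id3 kept their call. Tmsb4x lost it without labelled KO library 1 (limma adjusted p = 0.0503), Cd52 without control library 2 or labelled KO library 1 or 2 (highest 0.0546) and Clic1 without labelled KO library 1 or 3 (highest 0.0531). Sh3bgrl3, Fxyd5, H3f3b, Cd53 and Anp32a lost theirs without control library 2 or 3 or any 1 labelled KO library, with highest limma adjusted p from 0.0816 to 0.158, and Arpc1b without control library 2 or any 1 labelled KO library (highest 0.066). Fxyd5, Cd53 and Anp32a did so without control library 1 too, Cd53, Anp32a and H3f3b without Fosl2 Tg library 3, and H3f3b without Fosl2 Tg library 2.

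**Figure D3:**
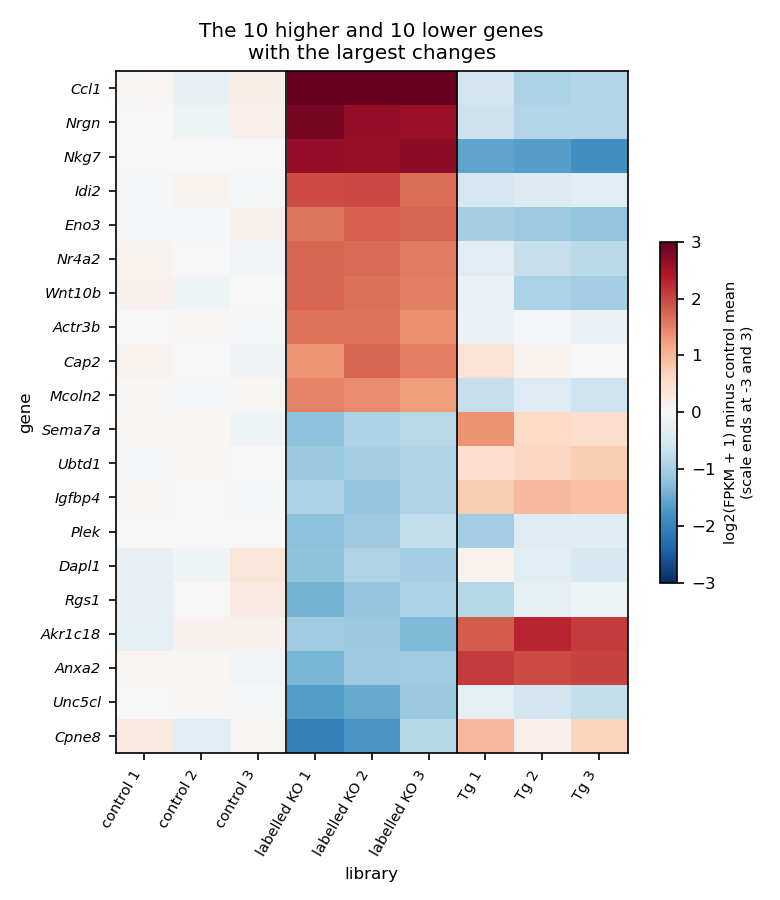
Log2(FPKM + 1) minus the control mean (colour, scale from -3 to 3) of the 10 higher and 10 lower called genes with the largest changes (rows) in the 9 libraries (columns). The 3 labelled KO columns are red for the upper 10 genes and blue for the lower 10; Cpne8 is paler in labelled KO library 3 than in the other two, and the Fosl2 Tg columns, which took no part in the choice, are shown for comparison.

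Of 27 glycolysis genes, 3 rose and 0 fell: Eno3, an enolase known from muscle, from 20, 20.1 and 23 FPKM to 66.1, 74.8 and 72.6 (log2 1.72 ± 0.08, limma adjusted p = 2.59e-05), the lactate transporter Slc16a3 from 4.33 ± 0.209 to 8.41 ± 0.464 and the regulator Pfkfb3 from 19.8 ± 1.72 to 26.7 ± 1.27. The list's median was 0.02, and 17 of its genes had a positive difference. Ldha (928 and 897), Slc2a1 (28.1 and 27.3), Slc2a3 (8.03 and 9.40) and Hk2 (18.4 and 20.9) did not pass. Pfkfb3 lost its call without control library 2 or any 1 labelled KO library (highest limma adjusted p = 0.0808). Of 25 cholesterol synthesis genes, Idi2, an isomerase of the isoprenoid pathway, rose from 0.690, 0.884 and 0.662 to 5.82, 5.89 and 4.53 (1.87 ± 0.10, limma adjusted p = 8.42e-05) and 0 fell, while its paralogue and neighbour Idi1 (102 ± 11 and 118 ± 13) and Sqle (36.8 and 38.4) did not pass. Idi2 was under 1 FPKM in every control library and reached the filter through the labelled KO libraries; with a mean of at least 5 FPKM 0 of these genes passed. When Fosl2 Tg library 1 was omitted, 5 of these genes rose. The difference was positive for 22 of the 25, against 4664 of the 10340 tested genes.

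Of 40 cell cycle genes, 0 rose and 1 fell, Cenpa, the histone of the centromere, from 10.8 ± 0.979 to 7.76 ± 0.529 FPKM. That call was lost without control library 2 or 3 or labelled KO library 1 or 3 (highest limma adjusted p = 0.0805). The cell cycle genes that fell numbered 2 when Fosl2 Tg library 1 was omitted. With the replicate block 7 fell and with array weights 13. Of these genes 2 had a positive difference, and the list's median was -0.23, against -0.014 over all tested genes. Mki67 was at 18.8, 20.4 and 18.4 in control and at 11.3, 15.6 and 15 in the labelled KO libraries (limma adjusted p = 0.148). Ccnb1 (11.5 and 10.1), Mcm5 (175 and 170) and Pcna (587 and 529) overlapped between the groups. Of 29 ribosome biogenesis genes and of 20 heat shock and unfolded protein genes none passed in either direction, here, with the 6 libraries alone or with any 1 library left out, although the difference was positive for 25 of the 29 ribosome biogenesis genes, with Fbl at 420 and 422, Ncl at 464 and 480, Hspa5 at 270 and 285 and Hspa8 at 2400 in both groups. At an unadjusted limma p under 0.05, 1 ribosome biogenesis gene was higher and 1 heat shock gene was lower.

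The remaining lists were small in effect. Of 15 type I interferon genes, 2 rose and 0 fell. Ifih1, a sensor of viral RNA, rose from 3.65, 3.59 and 3.43 FPKM to 9.06, 8.44 and 6.85 (log2 0.99 ± 0.10, limma adjusted p = 0.00146, call kept). Without any 1 control or labelled KO library or Fosl2 Tg library 3, 1 gene of this list rose. Ifitm2 (82.4 ± 7.51 and 106 ± 14.5) did not pass. Of 18 TGF-beta pathway genes, Lrrc32 rose and 3 fell: Tgfb1, the signal transducer Smad3 (6.22 ± 0.872 to 4.07 ± 0.120) and the repressor Skil (15.7 ± 0.996 to 12.3 ± 1.08). Smad3 and Skil lost their calls without control library 1 or 2 or labelled KO library 1 or 2 in turn, and without Fosl2 Tg library 3, with highest limma adjusted p of 0.146 and 0.138; Smad3 also did without labelled KO library 3 and Skil without Fosl2 Tg library 2. Tgfbr1 (8.72 and 7.71) and Smad7 (5.52 and 3.35) did not pass. The TGF-beta pathway genes that fell numbered 5 with Fosl2 Tg library 1 omitted. Of 26 apoptosis genes, Fasl fell and 0 rose (2 lower without control library 3, and 1 higher and 4 lower without Fosl2 Tg library 1), with Bcl2l11 at 22.8 in both groups, Mcl1 at 103 and 98.1 and Fas at 11.5 and 12.7. Of 14 genes of major histocompatibility complex presentation 0 passed, B2m being at 1030 ± 32.1 and 914 ± 39.8 and Cd74 at 15.3 ± 1.85 and 11.7 ± 0.490. With the 6 libraries alone, or without Fosl2 Tg library 1, 3 of them fell and 0 rose, and 4 were lower at an unadjusted limma p under 0.05.

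**Figure D4:**
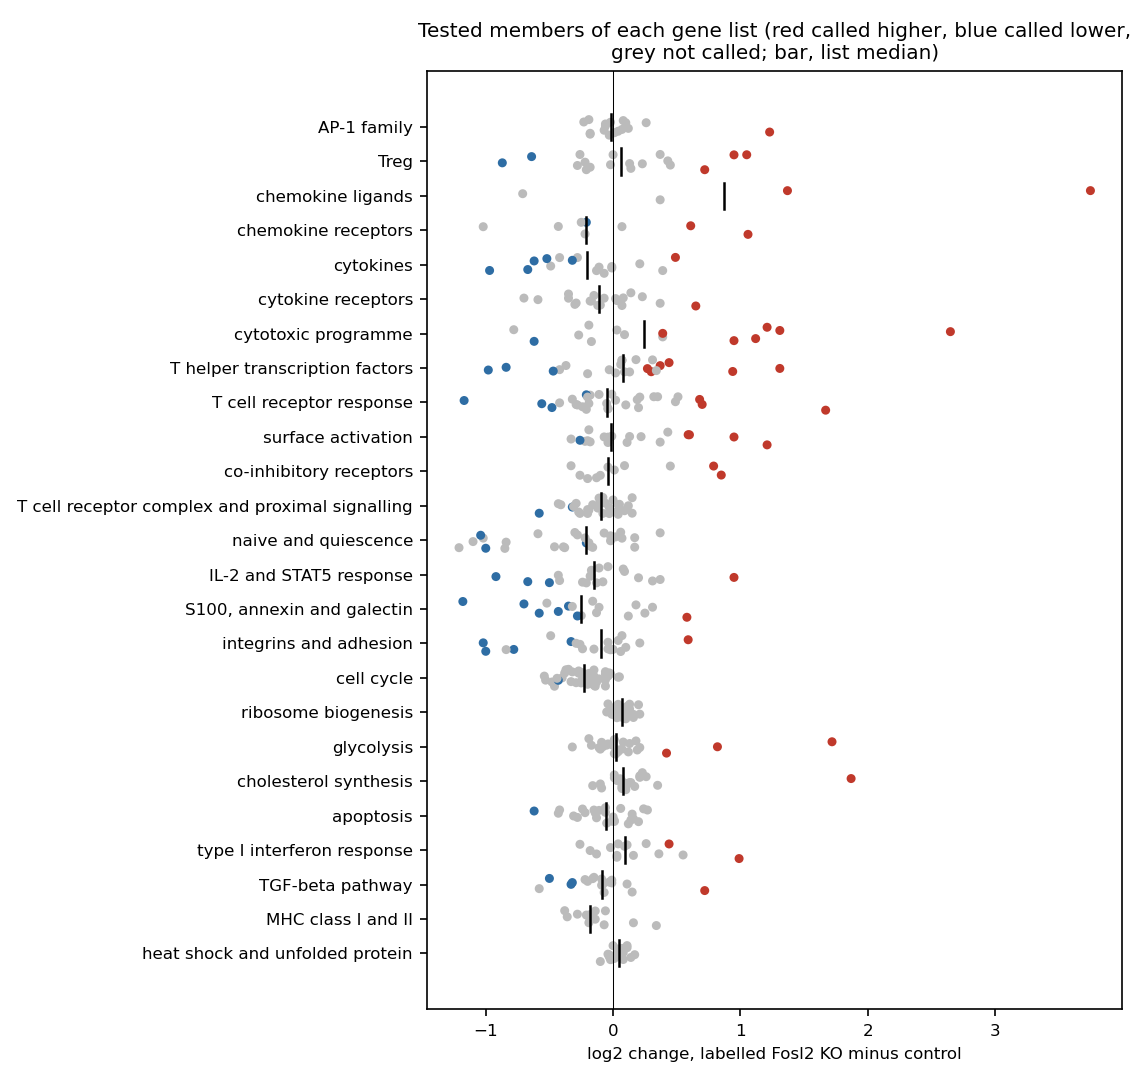
Log2 difference of the libraries labelled Fosl2 KO from control (x axis) for each tested member (points) of 25 gene lists (rows), red for called higher, blue for called lower and grey for not called, with the median of each list as a bar. The cytotoxic programme has 6 red points and a median of 0.24, the S100, annexin and galectin list 6 blue points and a median of -0.25, and the cell cycle list lies mostly below 0 with 1 call.

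Several of the largest changes lay outside these lists. Wnt10b, a secreted Wnt ligand, stood at 7.44, 5.99 and 6.71 FPKM in control and at 25, 23.3 and 20.9 in the labelled KO libraries (log2 1.64 ± 0.21, limma adjusted p = 0.00424). Arc, known as an immediate early gene of neurons, rose from 3.71, 3.25 and 3.19 to 11.2, 10.9 and 8.49 (1.35 ± 0.17), and Mcoln2, a cation channel of endolysosomes, from 3.11, 2.81 and 3.08 to 10.3, 9.71 and 8.55 (1.39 ± 0.09). Each of these was at least 2 times as high in every labelled KO library as in any control. Cap2, an actin regulator, rose from 0.589 ± 0.120 to 3.66 ± 0.673, and Inppl1, the phosphoinositide phosphatase SHIP2, from 2.90 ± 0.329 to 8.57 ± 1.54. Among the changes with the smallest spread, the adaptor Stap1 rose from 33.4, 33.2 and 33.4 to 53.0, 52.3 and 54.0 (0.65 ± 0.04, limma adjusted p = 0.000123), the sheddase Adam10 from 53.2 ± 2.61 to 93.1 ± 1.91 and the plakophilin Pkp4 from 17.9 ± 0.167 to 37.4 ± 1.36.

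Lower genes outside the lists included enzymes and adaptors. Akr1c18, the hydroxysteroid dehydrogenase that inactivates progesterone, stood at 6.22, 8.56 and 8.46 FPKM in control and at 3.13, 3.00 and 2.44 in the labelled KO libraries (log2 -1.17 ± 0.15, limma adjusted p = 0.00404). Dok2, an adaptor that restrains receptor signalling, fell from 23.9, 23.7 and 24.1 to 11.8, 11.7 and 13.3 (-0.91 ± 0.06, limma adjusted p = 0.000229). These groups were far apart. Ubtd1 fell from 7.19 ± 0.264 to 3.10 ± 0.303, Acpl2 from 3.50 ± 0.183 to 1.35 ± 0.291, the integrin chain Itga3 from 2.85 ± 0.0817 to 1.16 ± 0.0341, Ccdc64 from 43.8 ± 1.91 to 29.5 ± 0.895 and the centriole gene Poc5 from 6.15 ± 0.316 to 3.8 ± 0.218. All calls of these higher and lower genes were kept.

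Called genes were frequent on the proximal side of Fosl2 on chromosome 5. Within 10 Mb of Fosl2, which was left out of the count, 16 of 121 tested genes passed (13.2%), 10 higher and 6 lower, against 445 of 10219 other tested genes (4.35%). Between the first tested gene of the chromosome, at -28.8 Mb from Fosl2, and Fosl2 itself, 20 of 108 genes passed (18.5%), 15 higher and 5 lower. On the other side the frequency fell to the level of all genes or below it: 2 of 39 genes passed within 5 Mb, 0 of 80 between 5 and 50 Mb, and 13 of 425 (3.06%) farther away. The segments of this count were drawn after the positions of the called genes had been seen. Some stretches of other chromosomes had similar shares, although the densest window was on chromosome 5 itself. Among 189 windows of 10 Mb with at least 20 tested genes, the highest shares were 5 of 22 on chromosome 5 (0 to 10 Mb), 7 of 35 on chromosome 17 (0 to 10 Mb), 5 of 26 on chromosome 9 (80 to 90 Mb) and 6 of 35 on chromosome 17 (70 to 80 Mb). The 7 called entries of chromosome 17 from 0 to 10 Mb were Tmem181a, Tmem181b-ps, Tmem181c-ps, Dynlt1b, Dynlt1c, Rnaset2a and Rnaset2b. By name these are related copies, and whether they changed separately was not tested. Chromosome 5 from 20 to 30 Mb ranked 5 (9 of 53), and the window that holds Fosl2 ranked 10 (9 of 79, Fosl2 included). The number within 10 Mb was 8 without control library 2 or labelled KO library 3, 10 and 9 without labelled KO library 1 and 2, and 30 without Fosl2 Tg library 1. Within 5 Mb, 8 of 77 genes passed, but 5, 1 and 4 did without control library 1, 2 and 3, 2, 2 and 1 without labelled KO library 1, 2 and 3, and 17 without Fosl2 Tg library 1. The 1 of 77 (1.3%) was below the share elsewhere without control library 2 (1.71%) and without labelled KO library 3 (2.04%).

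Single genes of this stretch changed strongly. Actr3b, an actin-related protein 6.38 Mb from Fosl2, stood at 0.610, 0.677 and 0.602 FPKM in control and at 4.01, 4.03 and 3.30 in the labelled KO libraries (log2 1.55 ± 0.08, limma adjusted p = 6.16e-05). Galnt11, a transferase of O-linked sugars 6.91 Mb away, rose from 5.16, 4.76 and 4.21 to 13.8, 13.7 and 13.9 (1.38 ± 0.10), and Srpk2, a kinase of splicing factors 8.63 Mb away, from 10.3, 9.61 and 9.42 to 17.1, 18 and 18 (0.80 ± 0.05). In Fosl2 Tg these 3 genes had means of 0.479, 5.69 and 10.6 FPKM, near control. Atg9b (1.81 ± 0.0661 to 3.89 ± 0.152), Klhl7 (3.86 ± 0.168 to 5.51 ± 0.103) and Slc35f6 (3.68 ± 0.313 to 6.35 ± 0.399), the last 1.49 Mb from Fosl2, rose with kept calls. The listed entries of Srpk2, Atg9b and Klhl7 overlap those of Mll5, Nos3 and Mir3471-1, whose fragments cannot be separated here.

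Closer to Fosl2 most calls were not kept. Mrpl33, a mitochondrial ribosomal protein 0.52 Mb away, fell from 125 ± 15.7 to 85.1 ± 4.83 FPKM (log2 -0.55 ± 0.10), Pisd, a phospholipid decarboxylase 0.60 Mb away, from 32.0 ± 0.602 to 26.3 ± 0.805, and Fam53a from 24.7 ± 0.578 to 21.1 ± 0.313. Slc4a1ap (17.5 to 21.2) and Zfp512 (7.10 to 8.55) rose, as did the potassium channel gene Kcnh2 (0.810 to 1.48), 7.82 Mb away, and Cenpa and Ccdc164 (1.71 to 0.799) fell. The calls of Mrpl33, Pisd, Slc4a1ap, Zfp512, Fam53a, Kcnh2 and Ccdc164 were each lost without control library 2 and without labelled KO library 2 or 3 in turn, and most also without others, with highest limma adjusted p from 0.0588 to 0.152. Farther out, in a region looked at after the values were seen, Cldn12, a tight junction protein 26.6 Mb from Fosl2, rose from 0.776, 0.784 and 0.743 to 2.42, 2.41 and 2.18 (0.91 ± 0.07, limma adjusted p = 0.000279), and Tmem243, Krit1, Ankib1 and Phtf2 rose and Sri fell. Actr3b, Kcnh2 and Cldn12 were under 1 FPKM in control and in Fosl2 Tg and reached the filter through the labelled KO libraries, so their part in the counts by position is not independent of the filter.

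**Figure D5:**
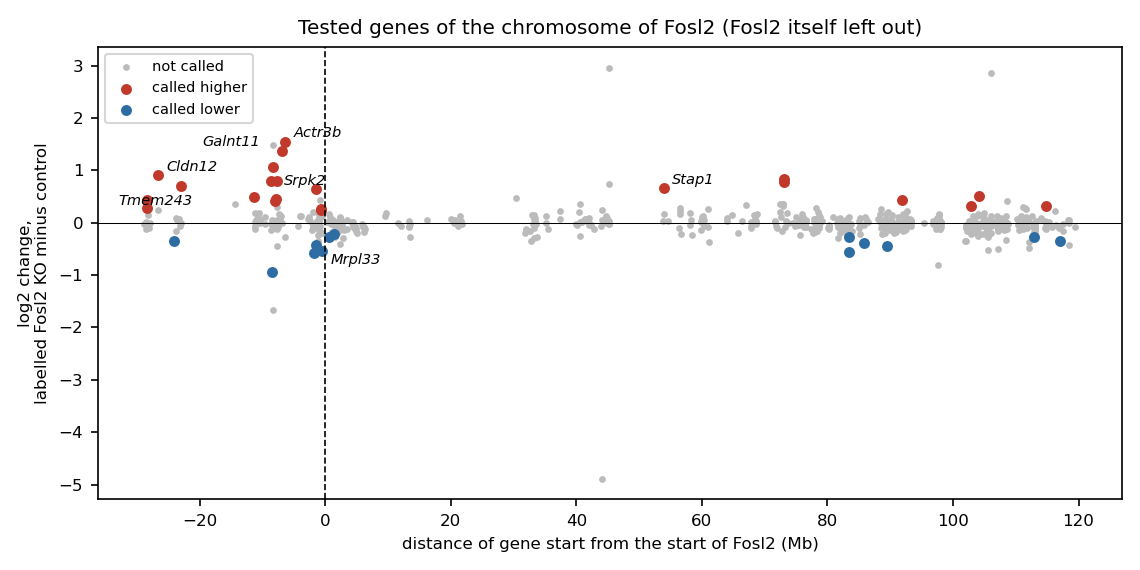
Log2 difference of the libraries labelled Fosl2 KO from control (y axis) of the tested genes of chromosome 5 against the distance of their start from that of Fosl2 (x axis, Mb; dashed line, Fosl2, itself left out), red for called higher, blue for called lower and grey for not called. Called genes crowd to the left of the dashed line (20 of 108), and between 5 and 50 Mb to its right there are none of 80.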

How the data were processed

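Directional poly-A RNA-seq libraries of 3 control, 3 labelled Fosl2 KO and 3 Fosl2 Tg samples were used as deposited, and each of the 9 value columns matched 1 sample. The submitters' processing notes list TopHat, Cufflinks, Cuffdiff and the build mm10. The sources used here give no version, strand setting or annotation. FPKM values for each gene in each library are those the authors deposited. Their second table holds group FPKM, a log2 fold change, a p-value and a q-value per gene, deposited by the authors with no replicate error, and is quoted where named.

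Counts were not recovered, since 55.3% of 4875 low genes fell within 0.05 of whole steps; depth was estimated from such steps. Values were transformed to log2(FPKM + 1), so changes of low genes are understated. The 10340 entries with a mean of at least 1 FPKM were fitted in limma 3.58.1 (R 4.3.3) with a trend, all 9 libraries sharing the spread, and p-values were adjusted by Benjamini-Hochberg at 0.05. The procedure was also run on simulated data with independent noise for each gene. That simulation held no effect shared by a whole library and changed no gene of low control level. It therefore does not show how the procedure handles either case. Scaling by FPKM depends on all transcripts, and small RNA entries took 21.1 to 38.0% of the summed FPKM. Of the tested entries, 97 share a symbol with another and 15 have symbols turned into dates.

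Genes named were Fosl2, Foxp3, the 15 largest called changes in each direction, the 10 kept calls with the smallest adjusted p in each direction, the 15 most abundant called genes and members of gene lists chosen by hand. Members and lists were chosen with earlier results of these data known. Some genes that this rule names are not reported here. Lists are described by counts and medians without a test. Alternatives were other pseudocounts, filters, scalings, fits with 6 libraries, array weights, a robust fit, a replicate block and leaving out each library.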

Additional observations from a re-analysis of the deposited data

How the results depend on the processing

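Fosl2 and Foxp3 kept their direction and their limma call under every alternative that could be computed; Foxp3 falls below a mean of 5 FPKM, so that filter gave it no value. The 461 calls became 289 with a mean of at least 5 FPKM, 888 with 6 libraries in the fit, 2834 with array weights and 176 to 1233 with 1 library left out. The 16 calls within 10 Mb of Fosl2 became 10, 26, 43 and 8 to 30 under the same settings, and 8 in a window of 5 Mb (1 to 17 with 1 library left out). The causes of these shifts were not tested. A replicate block gave 491 calls, 381 of them shared, and 15 within 10 Mb. After the group mean of each gene was subtracted, same-numbered libraries of different groups correlated between -0.126 and 0.098. The best partner of each library in another group, whatever its number, reached 0.061 to 0.143. With 3 libraries a group, such remainders cannot show whether the numbers mark a pairing. No named gene that was called changed sign. Of the named genes not called, 18 did, all within 0.09 of 0 on the log2 scale. Small RNA genes left out gave 0.0 for Fosb, Tfrc and Slc2a1, 0.01 for Itgb1 and Epcam and 0.03 for Cd3e, which had 0.0 with median-of-ratios scaling and 0.03 with quantile normalization. Array weights gave 0.0 for Fosb and Mcl1, 0.05 for Atf3, -0.06 for Ikzf3, -0.03 for Lag3, -0.05 for Bcl2l11, -0.02 for Hspa8 and 0.06 for Epcam. Leaving out 1 library gave -0.08 to 0.03 for Fosb, -0.16 to 0.01 for Batf, -0.14 to 0.17 for Atf3, -0.21 to 0.21 for Ikzf3, -0.16 to 0.0 for Nfatc1, -0.08 to 0.01 for Tfrc, -0.05 to 0.04 for Lag3, -0.03 to 0.02 for Cd3e, -0.02 to 0.18 for Socs2, -0.05 to 0.07 for Fbl, -0.01 to 0.11 for Ncl, -0.11 to 0.01 for Ldha, -0.05 to 0.03 for Bcl2l11 and Hspa8 and -0.08 to 0.1 for Epcam. With 3 libraries a group, small changes of low genes lie within the spread between libraries.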

Other observations

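Genes under the mean of 1 FPKM were looked at after their values had been seen. Of 7057 such entries, 192 passed (2.72%) in the limma fit with no filter on low values. The labelled KO libraries had higher values for 165 of them and lower values for 27. Wnt1, a secreted Wnt ligand, stood at 0.0557, 0 and 0.0253 FPKM in control and at 1.36, 1.03 and 1.15 in the labelled KO libraries. Ddn, near Wnt1 on chromosome 15, stood at 0.474, 0.355 and 0.400 in control and at 1.33, 1.24 and 1.27. Both were higher in every labelled KO library. Wnt10b, which rose above the filter, lies on the same chromosome, and 13 of the 19 Wnt genes listed were under 0.1 FPKM in all 6 libraries. Ikzf2, the transcription factor Helios of many Treg, stood at 0.460, 0.469 and 0.399 in control and at 1.16, 1.47 and 1.32 in the labelled KO libraries. Cd70, the ligand of Cd27, went from 0.0612, 0.156 and 0.249 to 0.748, 0.831 and 0.888. Emilin1, an extracellular matrix protein on chromosome 5, was lower, at 1.34, 1.42 and 1.55 in control and 0.296, 0.396 and 0.320 in the labelled KO libraries. The authors' deposited table marks 1150 of its 4122 entries as significant between these groups, 534 higher and 616 lower, and 363 of the 458 called genes with a single entry are among them.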
